A study of Mus musculus with 8 samples.

Results

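The interferon-stimulated effector genes described here are 52 gene symbols chosen as a list. It holds direct antiviral effectors, the 2′-5′-oligoadenylate synthetase (OAS) family, and a group of sensors of foreign nucleic acid and enzymes that act on nucleic acid. It also holds enzymes of the ISG15 pathway, the PARP9 complex, 2 families of interferon-induced GTPases (GBP and IRG) and 6 further interferon-stimulated genes. Of the 52 symbols, 49 had a value in the files, which hold 20207 genes. All 49 were among the 12561 genes that were compared, whose 8 values summed to more than 1 RPKM. Herc6, Gbp7 and Ifi27 were not analysed here. The list was chosen by symbol and function, with earlier results of these data known.

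Interferons are secreted proteins that bind receptors on the cell surface. The receptors activate JAK kinases, which phosphorylate STAT proteins. Complexes of these proteins enter the nucleus and bind promoter elements called ISRE and GAS, and transcription of the effector genes follows. Their products block viral entry, degrade or sequester foreign RNA, attack the vacuoles in which microbes grow, and also feed back on the pathway. Haematopoietic stem cells are known to express a share of these genes without infection.

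RNA was sequenced from bone marrow cells of mice with chronic myeloid leukaemia (CML) and of normal mice, in 8 libraries. The study's methods describe CML-affected mice that carry Tal1-tTA and TRE-BCR-ABL1, in which the Tal1 regulatory element drives a transactivator that switches on the BCR-ABL1 oncogene once doxycycline (DOX) is withdrawn, and normal littermates with Tal1-tTA alone, both taken 5 weeks after withdrawal. By these methods, Tal1-tTA was shared by the groups compared. Long-term (LT) cells were gated as CD150+CD48-CD135-KLS+, short-term (ST) cells as CD150-CD48-CD135-KLS+, and KLS- cells were progenitors, where KLS+ stands for Kit-positive, lineage-negative and Sca-1-positive. There were 2 LT-HSC libraries (the labels give ages of 2 and 6 months), 1 ST-HSC library and 1 normal KLS- library (2 months each), 2 LT-CML libraries, 1 ST-CML library and 1 CML-KLS- library, whose age the labels leave out. The labels name C57BL/6 as the strain of every library, whereas the methods name FVB/N. The methods give both groups the same age range, and 6 months lies outside it. Whether every library came from the mice described, with their genotype and timing, is thus not settled. Neither labels nor methods say whether libraries came from separate or pooled mice. P-values therefore measure only the spread between these libraries, which may be technical. Age cannot be told apart from the disease where it differs between the groups.

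Depth was similar, as the library with most reads had an estimated 1.34 times those of the library with fewest, and 320 member values rested on at least 100 estimated reads. Of the 20 values under 20 estimated reads, 12 were in the CML-KLS- library. RNA of the gating markers went with the labels in part. Slamf1, which encodes CD150, was 10.7 to 35.5 RPKM in the LT libraries and at most 2.87 elsewhere, but RNA of Flt3, the gene of CD135, reached 61.6 and 71.6 RPKM in ST-HSCs and ST-CML, and Cd48 was 5.17 to 29.5 RPKM in the LT and 41.8 and 45.1 in the ST libraries, although both gates were CD48- and CD135-. The LT-HSC library of 6 months stood apart, with a summed level of 6 neutrophil granule transcripts of 3870 RPKM against 12.9 to 1010 in the other 7, and 80.7 RPKM for the 5 erythroid transcripts against 1.06 to 28.7. Of 6 transcripts of plasmacytoid dendritic cells, the main interferon producers, 5 were at or under 1 RPKM in every library, the exception being Tcf4, and at least 5 of 6 T and NK cell transcripts were too. In bulk RNA, fewer cells of a type and less RNA per cell cannot be told apart.

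Promoter sequence was examined first, because the members are grouped by a shared response. RefSeq promoters (assembly GRCm38.p6) from 250 bases before to 50 after the start were held for 35 of the 49 members. Dhx58, Gbp4, Gbp6, Iigp1, Mx1, Mx2, Oas1b, Oas2, Parp14, Parp9, Phf11, Rtp4, Usp18 and Zbp1 had no entry. The core letters of the ISRE (GAAANNGAAA, or TTTCNNTTTC on the other strand) stood in a promoter of 19 of the 35 members, against 3.99% of all 27025 genes of the table and 3.44% of its 32851 promoters. The GAS letters (TTCNNNGAA, which read the same on both strands) stood in 12 of the 35, against 9.55% of all genes, and 7 members had both. The 2 sets of letters can share bases. The stretches below lie within 200 bases before the RefSeq start, were placed on mm9 by exact match and were cut where an annotated exon of the gene begins. Capitals mark the ISRE letters. Rsad2, Bst2 and Ifit1 are shown as members lower in every CML stem library that hold the letters, and Isg15 as the member with the longest run of them among those printed.
Rsad2, chr12:27141318-27141517, minus strand: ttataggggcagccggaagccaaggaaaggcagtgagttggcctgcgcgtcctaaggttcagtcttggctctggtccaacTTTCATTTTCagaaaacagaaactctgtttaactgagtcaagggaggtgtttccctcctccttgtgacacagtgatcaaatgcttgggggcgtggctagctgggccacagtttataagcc
Bst2, chr8:74061372-74061571, minus strand: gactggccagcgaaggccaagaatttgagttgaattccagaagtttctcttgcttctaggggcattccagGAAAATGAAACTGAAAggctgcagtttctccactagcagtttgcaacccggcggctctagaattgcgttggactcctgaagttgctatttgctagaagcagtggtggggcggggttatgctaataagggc
Ifit1, chr19:34715179-34715360, plus strand: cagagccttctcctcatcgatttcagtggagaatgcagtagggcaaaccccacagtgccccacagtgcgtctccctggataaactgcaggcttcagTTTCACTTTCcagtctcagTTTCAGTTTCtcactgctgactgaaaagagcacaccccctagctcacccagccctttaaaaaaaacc
Isg15, chr4:155574928-155575127, minus strand: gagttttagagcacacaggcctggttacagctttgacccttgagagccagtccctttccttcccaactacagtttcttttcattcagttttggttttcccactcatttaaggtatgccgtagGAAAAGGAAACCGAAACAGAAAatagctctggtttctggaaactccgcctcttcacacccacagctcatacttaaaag
Cmpk2 and Ifitm1 are shown as a lower and a higher member with no ISRE letters in the stretch. The Ifitm1 stretch lies in an intron of another annotated transcript of the gene.
Cmpk2, chr12:27153880-27154068, plus strand: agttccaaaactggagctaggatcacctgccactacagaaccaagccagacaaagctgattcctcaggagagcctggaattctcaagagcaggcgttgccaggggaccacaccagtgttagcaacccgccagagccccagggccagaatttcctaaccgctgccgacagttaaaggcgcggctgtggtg
Ifitm1, chr7:148153775-148153926, plus strand: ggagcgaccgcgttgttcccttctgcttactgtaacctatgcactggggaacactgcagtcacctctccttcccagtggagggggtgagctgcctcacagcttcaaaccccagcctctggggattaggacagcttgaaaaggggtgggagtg
Oas1a and Gbp5 are shown because they hold the letters and overlapped between CML stem cells and normal HSCs.
Oas1a, chr5:121357537-121357734, minus strand: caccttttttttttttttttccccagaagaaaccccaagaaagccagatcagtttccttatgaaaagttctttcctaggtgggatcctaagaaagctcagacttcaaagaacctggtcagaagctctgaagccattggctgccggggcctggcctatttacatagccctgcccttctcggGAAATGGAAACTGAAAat
Gbp5, chr3:142159698-142159863, plus strand: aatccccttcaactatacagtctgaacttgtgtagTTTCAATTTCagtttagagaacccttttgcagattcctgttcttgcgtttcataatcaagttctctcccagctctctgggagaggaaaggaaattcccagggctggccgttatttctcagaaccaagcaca

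In Bst2, Isg15 and Oas1a the capitals are 2 or 3 overlapping copies of the letters, and in Ifit1 they are 2 separate copies. Between CML stem cells and normal HSCs, the 19 members with the ISRE letters had a median difference of -0.67 on the log2(RPKM + 1) scale (range -2.0 to 0.13) and the 16 without them -0.49 (range -1.49 to 0.80). In both sets, 9 members were lower in every CML stem library than in every normal HSC library. A match is a description of sequence, not a binding site.

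The first comparison asked which members differed between CML stem cells (2 LT-CML libraries and 1 ST-CML library) and normal HSCs (2 LT-HSC libraries and 1 ST-HSC library). Most members were lower in CML stem cells. The difference was below 0 for 47 of 49, against 57.0% of all genes compared, and its median was -0.57 against -0.041 over all genes. By limma with Benjamini-Hochberg adjustment over 12561 genes, 4 members (8.16%) were lower in CML stem cells at an adjusted p under 0.05, where 1.16% of all genes were, namely Rsad2, Bst2, Cmpk2 and Ifih1. No member was higher (0, against 1.18% of all genes). At an unadjusted p under 0.05, 25 members were lower and 1 was higher, against 7.5% and 5.02% of all genes. For 25 members (51%) each CML stem library lay below each normal HSC library, against 11.4% of all genes. For 1 member, Ifitm1, each lay above, against 6.92%, and for 23 the groups overlapped.

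**Figure D1:**
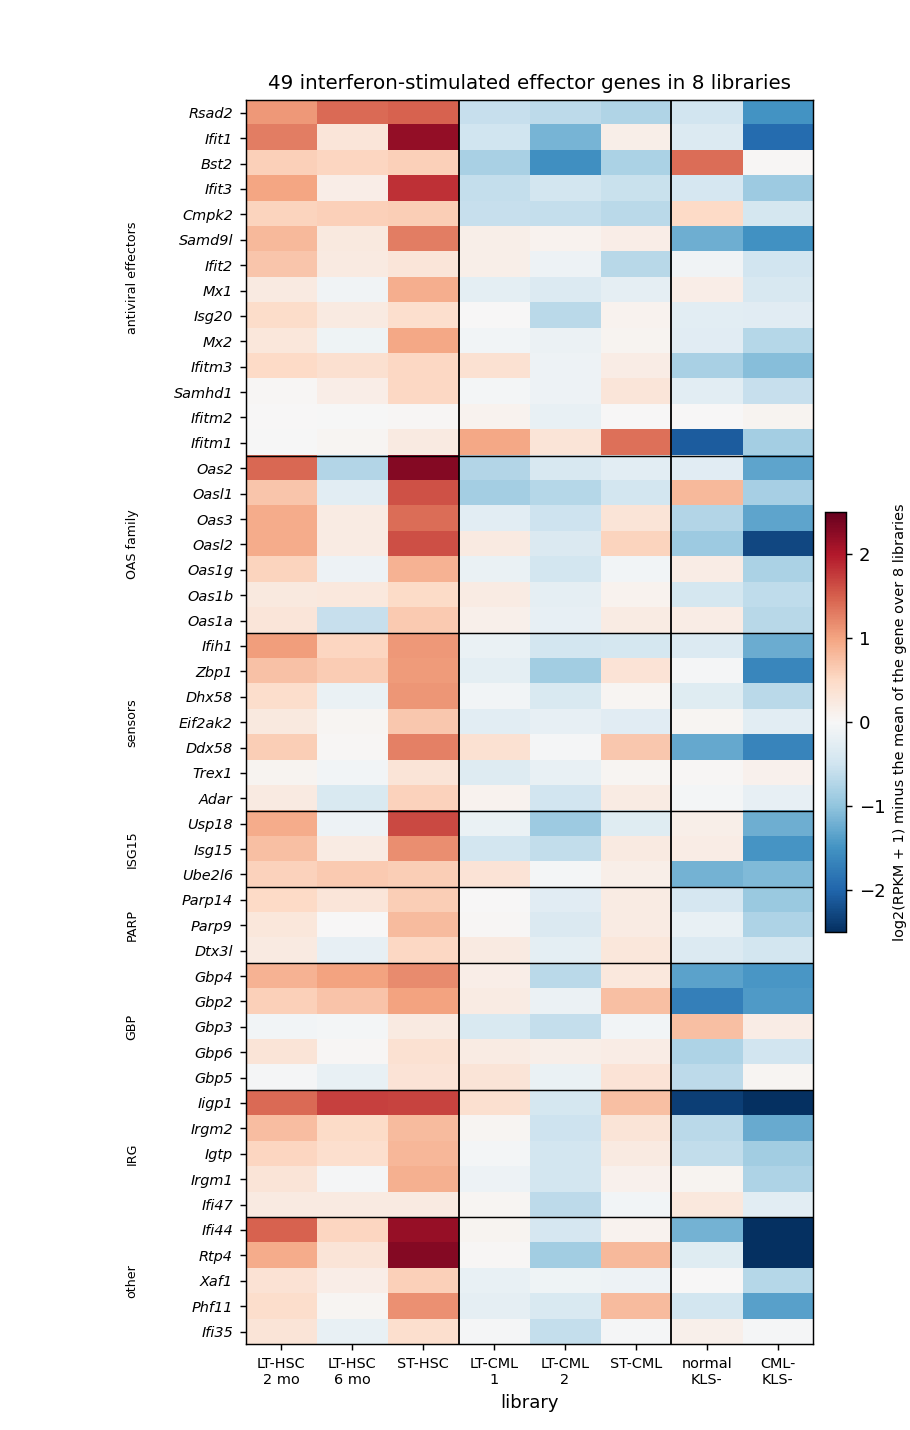
Heat map of log2(RPKM + 1) of the 49 members (rows, grouped by role) in the 8 libraries (columns), each gene relative to its mean over the 8 libraries, with colours capped at 2.5 above and below that mean. Most rows are red in the 3 normal HSC columns at the left, paler in the LT-HSC library of 6 months, and blue in the CML-KLS- column at the right, where 32 members had their lowest value, while Ifitm1 is red in the CML stem columns. The share of all genes lowest in CML-KLS- cells is not given here.

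These counts depended on the spread allowed within the groups. With the cell type, LT or ST, in the model, 15 members were lower (2.32% of all genes). A fit of all 8 libraries with population as a covariate also takes in the KLS- cells. There 24 were lower and Ifitm1 was higher (3.61% and 2.57% of all genes). Without the LT-HSC library of 6 months, 8 members were lower (0.844% of all genes), the 4 above with Oas2, Ifit3, Ifi44 and Oasl1, and without that of 2 months 2 were, Rsad2 and Cmpk2 (0.462% of all genes). Without the 6-month library, 40 members lay below each remaining normal HSC library in every CML stem library, against 19.2% of all genes. This library had the highest neutrophil sum, and the sums were 12.9 to 3870 RPKM in normal HSCs and 227 to 1010 in CML stem cells. The summed level of 8 monocyte and macrophage transcripts was 8.21, 12.2 and 14.3 RPKM in normal HSCs and 15.5, 26.0 and 35.7 in CML stem cells. It was thus higher in each CML stem library, and at least 5 of the 8 were at or under 1 RPKM in each of these libraries. Most of this rise was Cd14, at 1.0, 4.14 and 1.35 RPKM in normal HSCs and 8.07, 16.3 and 19.3 in CML stem cells. The other transcripts of the 8 overlapped between the groups, Csf1r at 0.323, 0.454 and 1.21 against 0.0748, 0.624 and 0.651 RPKM. The part of these transcripts in the differences was not tested.

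Among the 14 antiviral effectors, 3 passed the threshold and 10 were separated between the groups downwards. Rsad2 encodes viperin, an enzyme that makes a chain-terminating nucleotide against viral polymerases. It was 5.56 and 7.23 RPKM in LT-HSCs of 2 and 6 months and 7.55 in ST-HSCs, against 1.06 and 0.943 in LT-CML 1 and 2 and 0.822 in ST-CML, and 1.2 in normal against 0.089 in CML-KLS- cells. The highest CML stem value was well under the lowest normal value. The mean was 0.941 ± 0.118 RPKM in CML stem cells and 6.78 ± 1.07 in normal HSCs (SD, n = 3), 7.2-fold higher in normal HSCs. Rsad2 fell by 2.00 on the log2(RPKM + 1) scale (standard error 0.16, adjusted p = 0.00112 from limma), the largest fall of the members on this scale. Its adjusted p was at most 0.0112 under the alternatives tried for this comparison.

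Cmpk2 encodes a mitochondrial nucleotide kinase and is the neighbour of Rsad2 on chromosome 12, where their starts lie 12752 bases apart on opposite strands (chr12:27127618-27164700, mm9). It was 3.40, 3.53 and 3.54 RPKM in the LT-HSC libraries of 2 and 6 months and ST-HSCs, 1.01, 0.982 and 0.858 in LT-CML 1, LT-CML 2 and ST-CML, and 3.22 and 1.2 in normal and CML-KLS- cells. Values were nearly equal within each group. Cmpk2 fell by 1.20 (standard error 0.12, adjusted p = 0.003 from limma), from 3.49 ± 0.08 to 0.952 ± 0.0827 RPKM (SD, n = 3). Unlike Rsad2, its normal level was about the same in KLS- cells as in stem cells.

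Bst2 encodes tetherin, which holds budding virions on the cell membrane. In the same order it was 25.5, 24.2 and 25.5 RPKM in normal HSCs, 8.89, 5.02 and 9.04 in CML stem cells, and 44.8 and 16.8 in normal and CML-KLS- cells. Each CML library was lower than the normal library of its population. The fall was 1.63 (standard error 0.21, adjusted p = 0.00966 from limma). Without the LT-HSC library of 2 months its adjusted p was 0.0546.

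Of the IFIT proteins, which bind the ends of foreign RNA, all 3 genes lie together on chromosome 19 (chr19:34625184-34724499) and all were separated. Ifit1 was 11.8, 5.51 and 23.1 RPKM in normal HSCs, 2.71, 1.35 and 4.82 in CML stem cells, and 3.16 and 0.383 in normal and CML-KLS- cells. Its difference of -1.77 had a standard error of 0.50 (adjusted p = 0.159 from limma), and the normal values had a wide spread. Ifit3 was 2.71, 1.11 and 5.62 RPKM in normal HSCs and 0.242, 0.357 and 0.268 in CML stem cells, where it rested on 8.7 to 11.3 estimated reads. It was 0.395 RPKM in normal KLS- cells and listed at 0 in CML-KLS- cells, where 3 reads would be 0.0966 RPKM. Ifit2 was 11.8, 8.30 and 8.81 RPKM in normal HSCs, 7.73, 6.26 and 3.90 in CML stem cells, and 6.41 and 4.69 in KLS- cells, and its groups lay close to each other (difference -0.64, standard error 0.24, adjusted p = 0.333 from limma).

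Of the other effectors, Mx1, Samd9l and Isg20 were separated, and Mx2 and Samhd1 overlapped. Mx1, a dynamin-like GTPase, was 0.593, 0.30 and 1.58 RPKM in normal HSCs against 0.161, 0.0815 and 0.179 in CML stem cells, and 0.531 and 0.0402 in KLS- cells. The 4 CML values rested on 2.6 to 12.2 estimated reads. Samd9l, an inhibitor of viral translation, was 24.0, 15.8 and 33.4 RPKM in normal HSCs, 14.6, 14.0 and 14.9 in CML stem cells, and 5.11 and 3.93 in KLS- cells. Its CML stem values were nearly equal and just under the LT-HSC library of 6 months. Isg20, an exonuclease, was 28.3, 23.9 and 27.7 RPKM in normal HSCs, 20.4, 12.3 and 21.8 in CML stem cells, and 16.8 and 16.6 in KLS- cells. Differences of these genes were -0.57 to -0.65, with adjusted p of 0.324 to 0.345 from limma.

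The IFITM genes, whose membrane proteins block fusion of virus with the cell, did not move together, although Ifitm1, Ifitm2 and Ifitm3 lie side by side on chromosome 7 (chr7:148140736-148196669). They were also the members with the highest levels. Ifitm1 was 409, 426 and 486 RPKM in normal HSCs, 812, 517 and 1080 in CML stem cells, and 97.5 and 228 in normal and CML-KLS- cells. It was the only member higher in every CML library than in the normal libraries of its population. Its difference was 0.80 (standard error 0.25, adjusted p = 0.216 from limma), and with all 8 libraries fitted 0.91 (standard error 0.17, adjusted p = 0.0152 from limma). Ifitm2 was 710, 698 and 717 RPKM in normal HSCs, 743, 616 and 702 in CML stem cells, and 705 and 731 in KLS- cells, a difference of -0.05 (standard error 0.12). Ifitm3, at 614 ± 25.6 RPKM in normal HSCs and 498 ± 86.6 in CML stem cells (SD, n = 3), was separated downwards with a difference of -0.32 (standard error 0.15, adjusted p = 0.464 from limma). The gap was only that between 580 RPKM in LT-CML 1 and 585 in the LT-HSC library of 6 months. These 3 genes are near-identical in parts, and how reads that match several copies were counted is not given in the sources used here, which also bears on the Ifit, Oas1, Gbp and Irgm genes.

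**Figure D2:**
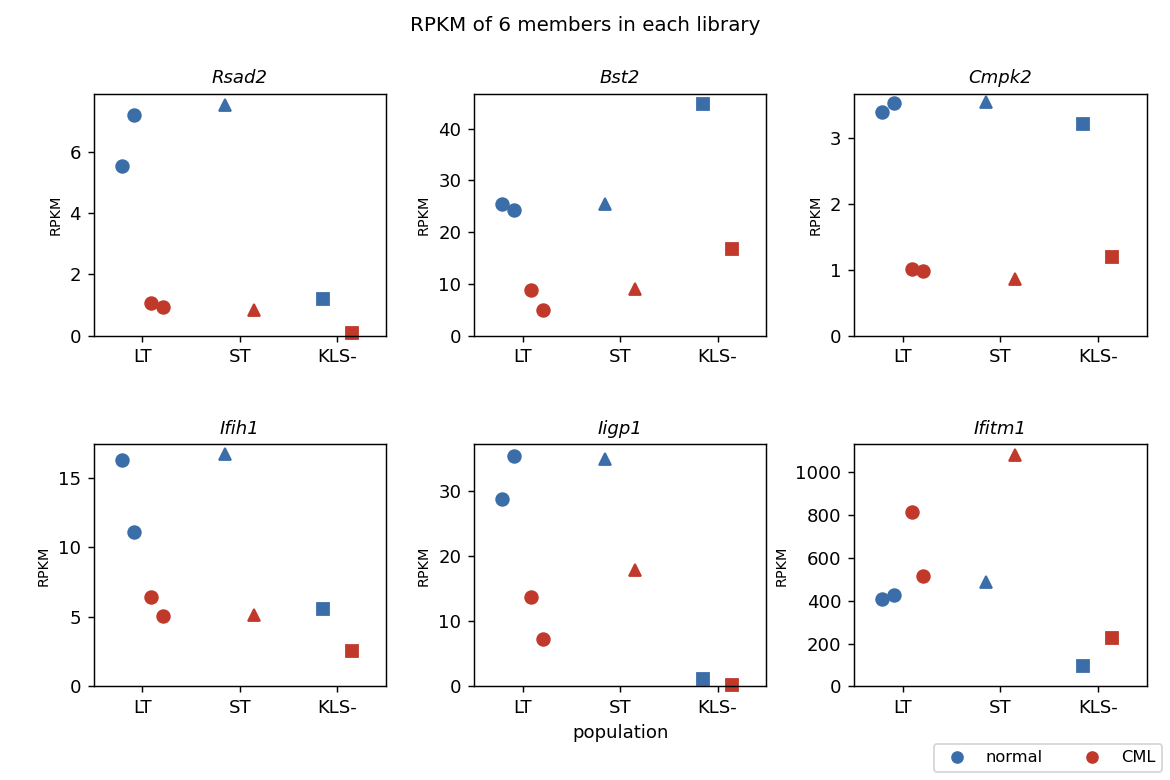
RPKM of Rsad2, Bst2, Cmpk2, Ifih1, Iigp1 and Ifitm1 (linear axes from 0) in each library, with 1 point per library, by population (LT, ST, KLS-) and group (blue normal, red CML). In the first 5 genes each red point of a population lies below its blue points, and in Ifitm1 above them, while Iigp1 is near 0 in both KLS- libraries and Bst2 is highest in normal KLS- cells at 44.8 RPKM.

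The 7 OAS genes encode enzymes that respond to double-stranded RNA with a second messenger for RNA degradation, and related proteins. All 7 had a difference below 0 (median -0.78) but only 2, Oas1b and Oasl1, were separated and 0 passed the threshold, 2 with the cell type covariate and 4 with all 8 libraries. For Oas1b the gap was only that between 1.45 RPKM in LT-CML 1 and 1.5 in LT-HSCs of 2 months. Oas2 shows the width of the normal values, at 6.33 RPKM in LT-HSCs of 2 months, 0.618 at 6 months and 12.2 in ST-HSCs, against 0.625, 1.04 and 1.24 in CML stem cells and 1.21 and 0.0727 in normal and CML-KLS- cells. The LT-HSC library of 6 months lay just below each CML stem library for this gene. Its difference was -1.47 (standard error 0.67, adjusted p = 0.434 from limma), and -2.33 (adjusted p = 0.0188) without that library. Oasl1 was 3.80, 1.48 and 7.97 RPKM in normal HSCs, 0.637, 0.802 and 1.16 in CML stem cells, and 4.21 and 0.661 in KLS- cells. Oasl2, the OAS gene with the highest mean level, was 33.4, 19.9 and 54.0 RPKM in normal HSCs, 20.1, 13.0 and 25.4 in CML stem cells, and 8.66 and 2.72 in KLS- cells, with overlap. Oas1a differed little in the pooled stem comparison, at 12 ± 5.09 RPKM in normal HSCs and 10.6 ± 1.67 in CML stem cells (SD, n = 3), a difference of -0.08 (standard error 0.31). Its LT-HSC values were 12.8 RPKM at 2 months and 6.49 at 6 months, against 11.2 and 8.72 in LT-CML 1 and 2. It was lower in ST-CML (11.9 against 16.6 RPKM in ST-HSCs) and in CML-KLS- cells (5.91 against 11.7 RPKM in normal KLS- cells).

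Of the 7 genes in the group of sensors and enzymes that act on nucleic acid, Ifih1 alone passed the threshold. It encodes MDA5, a receptor for long double-stranded RNA in the cytosol. Its values were 16.3, 11.1 and 16.7 RPKM in normal HSCs, 6.42, 5.09 and 5.16 in CML stem cells, and 5.56 and 2.53 in normal and CML-KLS- cells. The lowest normal value was above each CML stem value, and the CML stem level was close to that of normal KLS- cells. Ifih1 fell by 1.24 (standard error 0.19, adjusted p = 0.0191 from limma). This call was lost in 5 of the 6 fits that left out 1 library, the exception being the LT-HSC library of 6 months, with an adjusted p of up to 0.0998.

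Zbp1, a sensor of Z-form nucleic acid, was 7.12, 6.65 and 9.27 RPKM in normal HSCs, 3.15, 1.69 and 5.22 in CML stem cells, and 3.79 and 0.575 in KLS- cells (difference -1.07, standard error 0.30, adjusted p = 0.159 from limma). Eif2ak2, which encodes the kinase PKR, was 13.6, 11.8 and 18.9 RPKM in normal HSCs, 9.37, 9.79 and 9.16 in CML stem cells, and 11.9 and 9.28 in KLS- cells. Both were separated. Trex1, a DNA exonuclease, was 13.3, 12 and 16.0 RPKM in normal HSCs, 9.93, 11 and 13.1 in CML stem cells, and 12.9 and 13.7 in KLS- cells, and its groups overlapped. It shares 1314 exon bases with Atrip on the same strand, so reads there cannot be assigned to 1 of these genes. The related RNA receptor gene Ddx58, which encodes RIG-I, overlapped as well, with a difference of -0.30 (standard error 0.32), and so did Dhx58 and Adar.

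ISG15 is a ubiquitin-like protein, which Ube2l6 helps to attach to other proteins and Usp18 removes. Usp18, which also restrains the receptor, was 17.9, 8.16 and 30.1 RPKM in normal HSCs, 7.83, 4.28 and 7.09 in CML stem cells, and 10.1 and 3.30 in normal and CML-KLS- cells. The gap between the groups was only that between 7.83 and 8.16 RPKM, and the difference of -1.28 had a standard error of 0.42 (adjusted p = 0.248 from limma). Ube2l6 was far higher than the other genes of this group, at 135, 143 and 140 RPKM in normal HSCs, 116, 88.3 and 101 in CML stem cells, and 39.2 and 41.5 in KLS- cells. It was separated in stem cells (difference -0.46, standard error 0.14, adjusted p = 0.191 from limma) and about equal in KLS- cells. Isg15 itself was 11.3 ± 3.92 RPKM in normal HSCs and 5.19 ± 2.03 in CML stem cells (SD, n = 3) with overlap, and was lower in CML-KLS- cells at 1.63 RPKM than in normal KLS- cells at 7.31.

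Parp14, Parp9 and Dtx3l, which modify proteins with ADP-ribose or ubiquitin, lie together on chromosome 16 (chr16:35832960-35972691). Parp14 was 3.94, 3.37 and 4.38 RPKM in normal HSCs, 2.54, 1.91 and 3.04 in CML stem cells, and 1.63 and 0.859 in KLS- cells. It was the 1 gene of the 3 that was separated (difference -0.49, standard error 0.17, adjusted p = 0.283 from limma). Dtx3l was 17.5, 12.8 and 21.6 RPKM in normal HSCs, 17.5, 12.3 and 18.2 in CML stem cells, and 11.4 and 10.5 in KLS- cells, with nearly the same range in both groups. Parp9 and Dtx3l share 458 exon bases on opposite strands, and reads there cannot be told apart unless strand was used.

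The GBP family differed within itself. GBPs are GTPases that coat the vacuoles of intracellular microbes. Gbp4 was 3.98, 4.50 and 5.25 RPKM in normal HSCs, 2.08, 0.712 and 2.27 in CML stem cells, 0.0772 in normal KLS- cells and listed at 0 in CML-KLS- cells, where 3 reads would be 0.0371 RPKM. It was the only separated member of this family (difference -1.10, standard error 0.26, adjusted p = 0.0919 from limma). Gbp6, the next gene on chromosome 5 among the members, was 39.8, 32.5 and 41.4 RPKM in normal HSCs, 36.8, 35.1 and 36.0 in CML stem cells, and 18.1 and 22.5 in KLS- cells, and hardly differed in stem cells (-0.07, standard error 0.14). Gbp5 was the second member with a difference above 0, at 3.10 ± 0.78 RPKM in normal HSCs and 3.50 ± 0.829 in CML stem cells (SD, n = 3), within the spread (0.13, standard error 0.21). No gene of the cluster of Gbp5, Gbp3 and Gbp2 on chromosome 3 (chr3:142159864-142300972) was separated.

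Of the 5 IRG genes, a second family of vacuole-targeting GTPases, 4 were separated. Iigp1 was 28.8, 35.4 and 34.9 RPKM in normal HSCs, 13.7, 7.24 and 17.9 in CML stem cells, and 1.19 and 0.252 in normal and CML-KLS- cells. The lowest normal value was above the highest CML stem value, and both KLS- values were far below every stem value. Its difference was -1.36 (standard error 0.29, adjusted p = 0.0639 from limma), and 0.0185 was the adjusted p with the cell type covariate. Igtp was 32.7, 30.4 and 40.5 RPKM in normal HSCs, 21.4, 16.0 and 26.1 in CML stem cells, and 14.2 and 11.7 in KLS- cells. Its neighbour Irgm2 (chr11:58013058-58036282 for both) was 12.6, 10.2 and 12.9 RPKM in normal HSCs, 7.30, 4.55 and 9.05 in CML stem cells, and 4.03 and 2.35 in KLS- cells. Both had differences near -0.7 (-0.70 and -0.73, adjusted p = 0.176 and 0.228 from limma). Ifi47 had the highest mean of the family, at 82.9, 82.8 and 83.7 RPKM in normal HSCs, 73.6, 44.6 and 68.0 in CML stem cells, and 85.6 and 59.1 in KLS- cells. Its normal values were nearly equal in all populations. It shares 111 exon bases with Olfr56 on the same strand.

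Of the 5 other members, Ifi44 and Xaf1 were separated. Ifi44 was 21.7, 10.8 and 35.8 RPKM in normal HSCs, 7.54, 5.06 and 7.66 in CML stem cells, and 2.58 and 0.193 in normal and CML-KLS- cells (difference -1.49, standard error 0.38, adjusted p = 0.122 from limma). Xaf1, which encodes a partner of the apoptosis inhibitor XIAP, was 15.0, 13.0 and 17.9 RPKM in normal HSCs, 9.91, 10.5 and 10.4 in CML stem cells, and 11.5 and 6.63 in KLS- cells. Ifi44 had a wide normal range and Xaf1 a narrow one. Ifi35 was 33.8, 23.5 and 36.6 RPKM in normal HSCs, 26.4, 17.6 and 26.3 in CML stem cells, and 29.6 and 26.5 in KLS- cells, with overlap.

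**Figure D3:**
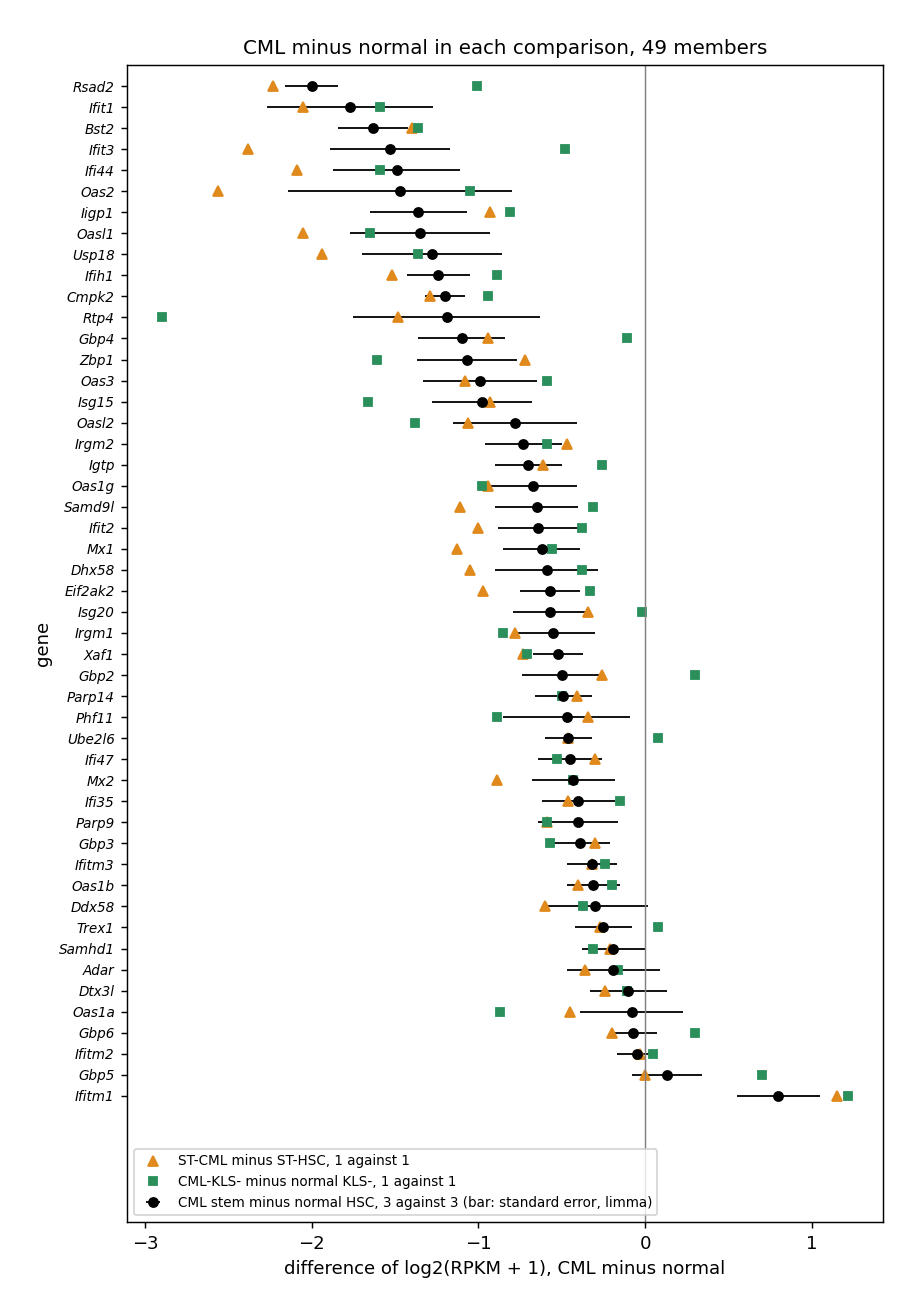
Difference of log2(RPKM + 1), CML minus normal, for the 49 members sorted by the pooled difference of 3 CML stem from 3 normal HSC libraries (black points, bars 1 standard error from limma), with the differences of the single ST (orange) and KLS- (green) pairs of libraries. Black points run from -2.0 for Rsad2 to 0.80 for Ifitm1, 47 lie left of 0, and green points of Rtp4 (-2.90) and of Gbp5 (0.70) lie far from the black ones.

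The LT populations had 2 libraries each, and their contrast was taken from a fit of all 8 libraries. Of the members, 3 (6.12%) were lower in LT-CML stem cells than in LT-HSCs, against 0.788% of all genes, and these were Rsad2, Bst2 and Cmpk2 again. Their differences were -1.88 (standard error 0.20, adjusted p = 0.00568 from limma), -1.74 (standard error 0.26, adjusted p = 0.0223) and -1.16 (standard error 0.18, adjusted p = 0.0235). Ifit1 (-1.63), Iigp1 (-1.58, adjusted p = 0.0502 from limma), Zbp1 (-1.24), Gbp4 (-1.19) and Ifi44 (-1.19) were further below 0 than Cmpk2 but did not pass the threshold. The median over the members was -0.52 against -0.015 over all genes, and 46 of 49 were below 0, against 52.6% of all genes. Ifitm1 (0.63), Gbp5 (0.20) and Oas1a (0.10) were above 0 and 0 members were higher by limma, where 1 had an unadjusted p under 0.05 (5.04% of all genes) and 22 lower members did (6.52%). With 2 libraries a group the calls rested on each of them: 0 of the 3 were kept without LT-CML 1, without LT-CML 2 or without the LT-HSC library of 6 months, and 1, Rsad2, without that of 2 months. These fits called few genes at all, with 1, 1, 12 and 44 of 12561 lower against 99 with all libraries. The differences themselves moved less, to between -1.71 and -2.04 for Rsad2, between -1.38 and -2.1 for Bst2 and between -1.14 and -1.18 for Cmpk2.

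In ST cells, with 1 library a group and so no test, 17 members (34.7%) were lower in ST-CML than in ST-HSC by at least 1 on the log2(RPKM + 1) scale, against 2.01% of all genes. Ifitm1 was higher by that much (1.15), against 2.03% of all genes. The median was -0.73, against -0.078 over all genes. The lowest were Oas2 (-2.56), Ifit3 (-2.38), Rsad2 (-2.23), Ifi44 (-2.09), Ifit1 (-2.05) and Oasl1 (-2.05). Of the 17, 8 were antiviral effectors and 4 OAS genes, and 0 were GBP or IRG genes. The ST-HSC library had the highest value of all 8 libraries for 39 of the 49 members, and for these the ST difference was taken from that value. The share of all genes highest there is not given here. Its median over all genes was 2.61 on the log2(RPKM + 1) scale, where the 8 libraries had 2.42 to 2.62. Its neutrophil sum was the lowest, at 12.9 RPKM. The part of this sum in the differences was not tested.

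In KLS- cells, again 1 library against 1, 11 members (22.4%) were lower in CML-KLS- than in normal KLS- cells by at least 1, against 1.39% of all genes. Ifitm1 was higher (1.22), against 1.85%. The median was -0.53 against -0.015 over all genes. The lowest was Rtp4, which encodes a chaperone of membrane receptors, at 10.5 RPKM in normal and 0.540 in CML-KLS- cells (-2.90), followed by Isg15 (-1.66), Oasl1 (-1.65), Zbp1 (-1.61), Ifit1 (-1.59) and Ifi44 (-1.59). The 7 members above 0 were Ifitm1, Gbp5 (0.70, from 1.5 to 3.07 RPKM), Gbp2 (0.30), Gbp6 (0.30), Ube2l6 (0.08), Trex1 (0.08) and Ifitm2 (0.05). The GBP family was split here, as Gbp3 (-0.57, from 31.5 RPKM in normal to 20.8 in CML-KLS- cells) and Gbp4 (-0.11) were lower. Its median was 0.30 here and -0.39 in stem cells. On a scale with a pseudocount of 0.1, 20 members (40.8%) were lower by at least 1, against 4.48% of all genes, since low values weigh more there. The CML-KLS- library had 619 RPKM of neutrophil transcripts against 118 in the normal one, and 143 against 81.1 RPKM of 8 monocyte and macrophage transcripts. Cd14 made up most of the latter rise, at 31.1 RPKM in normal and 85.1 in CML-KLS- cells. Cd68, Mrc1 and Vcam1 were also higher, and Csf1r, Emr1, Ms4a7 and C1qa were lower. The part of these transcripts in the differences was not tested.

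Across populations, 41 of the 49 members (83.7%) were lower in CML in the LT means, in ST and in KLS- cells, against 28.1% of all genes. The exceptions were the 7 members above 0 in KLS- cells and Oas1a, which was above 0 only in LT cells (0.10). Gbp5 was above 0 in LT and KLS- cells and 0.00 in ST cells. Over the 49 members, the differences in LT cells and those in ST cells, which share no library, had a Pearson correlation of 0.74 (all genes 0.58), those in LT and KLS- cells 0.67 (0.52) and those in ST and KLS- cells 0.68 (0.60). These describe the members, which are not independent of each other.

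**Figure D4:**
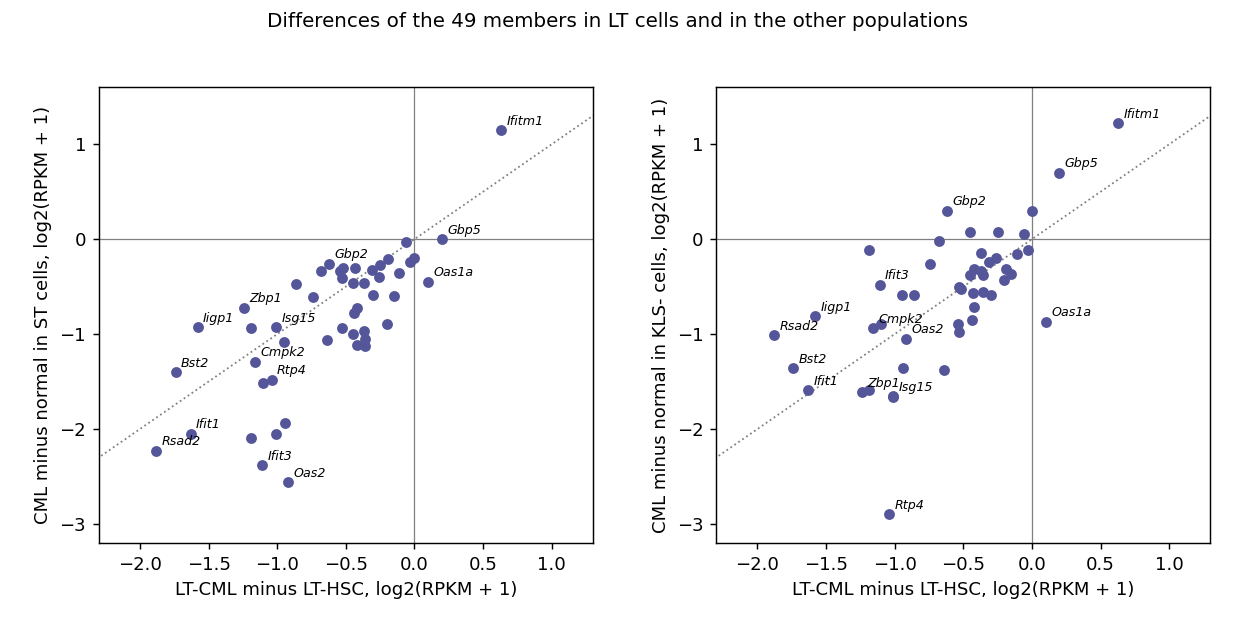
Difference of log2(RPKM + 1), CML minus normal, of each of the 49 members in LT cells (horizontal axis, 2 libraries a group) against that in ST cells (left) and in KLS- cells (right, 1 library a group each). The dotted line marks equal differences, most points lie at the lower left of both panels, and Ifitm1 is at the upper right in both panels, at 1.15 in ST and 1.22 in KLS- cells.

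Levels also differed between the populations themselves. With disease as a covariate, 26 members (53.1%) were higher in the 6 stem libraries than in the 2 KLS- libraries, against 22.7% of all genes, and Bst2 and Gbp3 were lower, against 19% of all genes. The largest difference was that of Iigp1 (3.67, standard error 0.29, adjusted p = 9.51e-05 from limma), followed by Ifi44 (2.63), Rtp4 (2.33), Oasl2 (2.12) and Gbp2 (2.08). Bst2 was lower in stem cells by 0.95 (standard error 0.20, adjusted p = 0.00669) and Gbp3 by 0.63 (standard error 0.17, adjusted p = 0.0163). Cmpk2 (-0.04) and Ifi47 (0.00) had about the same level in both. Without the normal or the CML-KLS- library, 14 members were higher (8.88% and 7.95% of all genes), and without the LT-HSC library of 6 months 33 were (22.4%). Neither Bst2 nor Gbp3 was called without the CML-KLS- library.

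LT cells had less of most members than ST cells. With disease as a covariate, 47 of 49 had a difference below 0 and the median was -0.41 (all genes 0.007). The share of all genes below 0 is not given here. Rtp4 (-1.45, standard error 0.28, adjusted p = 0.0301 from limma) and Phf11 (-1.0, standard error 0.17, adjusted p = 0.0187 from limma) were lower in LT cells, against 1.81% of all genes, and 0 were higher. Rtp4 was 25.9 and 16.6 RPKM in LT-HSCs against 68.3 in ST-HSCs, and 13.4 and 6.76 in LT-CML against 23.8 in ST-CML. Phf11, a nuclear protein with a PHD finger, was 4.87 and 3.48 against 8.61 RPKM in normal cells and 2.73 and 2.36 against 6.57 in CML cells. Both calls were lost without LT-CML 2, without ST-CML or without ST-HSC, Rtp4 alone was called without LT-CML 1, and 3 members, with Ifit1, were called without the LT-HSC library of 2 months.

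Normal LT-HSCs of 6 months had less than those of 2 months for 39 of the 49 members, against 56.4% of all genes (median -0.28, all genes -0.046). Oas2 (-2.18) and Usp18 (-1.04) were lower by at least 1, against 0.35% of all genes. Rsad2 was the member with the largest difference in the other direction (0.33). Each age had 1 library, and age cannot be told apart from the neutrophil transcripts of the 6-month library or from any other difference between the libraries. In CML, LT-CML 2 had the lowest value of the 3 CML stem libraries for 40 members, and its neutrophil sum (1010 RPKM) was the highest of the 3. The share of all genes lowest there is not given here. Its median over all genes was 2.53 on the log2(RPKM + 1) scale, against 2.62 in LT-CML 1 and 2.54 in ST-CML. Its summed RPKM, 324114, was also the lowest of the 8 libraries. The part of these library differences was not tested.

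The pathway upstream of the members was described by 31 genes for ligands, receptors, signalling, sensing and feedback, of which 24 could be compared. By limma, 0 were lower and 0 higher in CML stem cells (1.16% and 1.18% of all genes). At an unadjusted p under 0.05 there were 3, where 7.5% of all genes were lower and 5.02% higher. In the fit of all 8 libraries, which adds the KLS- cells, 1 was lower and 0 higher (3.61% and 2.57% of all genes). The ligands were at or near 0, with a highest value of 0.417 RPKM for Ifna4 in ST-CML. Among receptors, Ifnar1 was 9.01 ± 1.32 RPKM in normal HSCs and 8.96 ± 1.29 in CML stem cells (SD, n = 3), a difference of -0.01 (standard error 0.17), and Ifnar2 differed by 0.00 (standard error 0.26). Ifngr1, the receptor gene with the highest mean level over the 8 libraries, was 51.6 ± 10.6 and 55.2 ± 14.9 RPKM. Ifngr2 was 3.0, 4.43 and 4.34 RPKM in normal HSCs and 6.04, 4.56 and 10.6 in CML stem cells. It was higher in each CML stem library, against 6.92% of all genes, with a difference of 0.66 (standard error 0.28, adjusted p = 0.396 from limma).

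Irf1, the signalling gene with the highest mean level over the 8 libraries, was 70.4 ± 1.85 RPKM in normal HSCs and 45.4 ± 10.5 in CML stem cells (SD, n = 3, difference -0.65, standard error 0.17, adjusted p = 0.136 from limma). It was lower in each CML stem library than in each normal HSC library, as were Jak2 and the feedback gene Ptpn2 (11.4% of all genes were). Differences of Jak2 and Ptpn2 were -0.45 (standard error 0.20) and -0.24 (standard error 0.12). Irf7, which sustains interferon production, was 12.5, 3.41 and 19.5 against 3.48, 2.55 and 6.36 RPKM, and overlapped because of the LT-HSC library of 6 months, as Oas2 did. Stat2 differed by -0.01 (standard error 0.21) and Irf9 by -0.38 (standard error 0.29). By the mean over the 8 libraries, Tmem173, which encodes STING, had the highest level of the sensing genes and a difference of 0.21 (standard error 0.48), and Ptpn6 that of the feedback genes (0.14, standard error 0.20) and Socs3 differed by 0.10 (standard error 0.32).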

How the data were processed

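RNA of sorted cells was made into libraries with the SMARTer Ultra Low Input RNA Kit and read as paired ends of 100 bases. The authors mapped reads to mm9 (submitters' processing notes) with SeqNova CS and deposited 1 RPKM value (reads scaled to transcript length and mapped reads) per gene and library. The annotation and counting rule are not given in the sources used here. RPKM corrects for depth and length, not for library composition, so a few abundant transcripts can shift all others.

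Values were compared as log2(RPKM + 1), which understates changes of low genes, over 12561 genes with a total above 1 RPKM, by a linear model with a mean-variance trend (limma 3.58.1, R 4.3.3), p-values were adjusted by Benjamini-Hochberg and 0.05 was the threshold. The model was also run on simulated data with set changes and independent noise of the same size in every library. Those data held no outlying library, so that run does not bear on the differences between libraries described above. Python 3.11 with pandas 2.3.3 made the other values. Reads were estimated from the steps of low RPKM values and GENCODE M1 exon lengths, which had a step in 43.2% of low genes examined, and serve only as a guide to precision.

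Values in every library are given for 31 members: those past the threshold, those separated between groups by at least 0.5, and the highest and the most different of each role. Rtp4, Phf11, Isg15, Ifitm3, Oas1a, Oas1b, Ddx58, Gbp2, Gbp3, Gbp5, Stat2, Jak2, Irf7, Irf9, Ifnar1, Ifnar2, Ifngr2, Ptpn2 and Socs3 were named after their values were seen. Members and lists were chosen with earlier results of these data known. Alternatives changed the pseudocount, filter, scaling, covariates, trend and libraries, and leaving out libraries from the count of separated members was added after seeing the data. 1 gene of the pathway list is not reported here.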

Additional observations from a re-analysis of the deposited data

Results flagged for a closer look

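Ube2l6, which encodes the enzyme that conjugates ISG15, was lower in each CML stem library than in each normal HSC library (difference -0.46 on the log2(RPKM + 1) scale) but slightly higher in CML-KLS- than in normal KLS- cells (0.08, 41.5 against 39.2 RPKM). It stood out because its stem libraries did not overlap and the KLS- libraries differed the other way. Gbp2, Gbp6, Trex1 and Ifitm2 also had a difference below 0 in stem cells and above 0 in KLS- cells (for Gbp2 -0.50 and 0.30), but their stem libraries overlapped. The difference between the populations was not tested, since KLS- cells had 1 library a group, and no group had enough libraries for a search for single outlying libraries.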

How the results depend on the processing

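The count of members lower in CML stem cells than in normal HSCs by limma was 4. It was 15 with the cell type, LT or ST, in the model and ranged from 2 to 8 with 1 library left out. The fit of all 8 libraries gave 24, but it takes in the KLS- cells and so compares CML with normal over all populations. Members higher numbered 1 (Ifitm1) with all 8 libraries and 0 to 1 with 1 library left out. In LT cells, 3 members were lower as reported, 7 when genes needed a mean of at least 1 RPKM, 0 when all genes above 0 entered (that fit called 0 of all genes), and 0 to 4 with 1 library left out. Members higher in stem than in KLS- cells ranged from 14 to 33 with 1 library left out, and those lower from 0 to 2, with 1 after quantile normalization. Members lower in LT than in ST cells numbered 0 with all genes above 0 and 0 to 3 with 1 library left out. The count lower by at least 1 in CML-KLS- cells was 20 with a pseudocount of 0.1. Members below every normal HSC library numbered 24 after quantile normalization and 25 to 40 with 1 library left out. Of all genes, 14.7% to 19.2% were below with 1 library left out, against 11.4% with all libraries. The 7 members lower in LT cells at a mean of at least 1 RPKM stood against 1.24% of the 10033 genes of that fit. Of the values of the 31 named members in the pooled and LT comparisons, 839 stayed on their side of the threshold, 37 (17 genes) came to pass it and 21 (Rsad2, Bst2, Cmpk2 and Ifih1) no longer passed. No value that passed changed sign under these alternatives, but differences of Dtx3l, Gbp6 and Ifitm2, and that of Oas2 in LT cells, did not pass and lay on both sides of 0. Scaling kept 47 of 49 pooled differences below 0, and a pseudocount of 0.1 or upper-quartile scaling moved the median of all genes between stem and KLS- cells to 0.106 and 0.141, and quantile normalization to -0.021, from 0.076. In 1-library groups the remaining sample was assumed to vary like the others. Unless shown by fewer genes or samples, the cause was not tested. No paired analysis was possible because the normal LT libraries carry ages and not replicate numbers. Depth limits the lowest values, of which 20 rested on under 20 estimated reads.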
